A study of Mus musculus with 6 samples.

Results

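The genes described here are 10 components of the Nodal pathway: the ligand genes Nodal and Gdf3, the co-receptor gene Tdgf1 (Cripto), the receptor gene Acvr2b, the signal transducer gene Smad2, its nuclear partner gene Foxh1, the secreted inhibitor genes Lefty1, Lefty2 and Cer1, and Skil, which encodes the nuclear inhibitor SnoN. They were chosen by name, and all 10 were found among the 36699 rows of the authors' deposited table, each in a row of its own and among the 18114 rows that the authors tested. The table compares day 3 embryoid bodies, floating aggregates of differentiating mouse embryonic stem cells, with and without induced Lef1. Both groups were A2Lox.cre cells with a doxycycline-inducible Flag-Lef1 transgene, kept on mouse embryonic fibroblasts until these were removed before aggregation. The minus_Dox group (3 libraries) received no doxycycline, and the plus_Dox group (3 libraries) received it for 24 h from day 2. No library of cells without the transgene that received doxycycline was analysed here, so the drug and the induced factor cannot be told apart.

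Nodal is a secreted ligand of the TGF-beta family that binds activin receptors together with the co-receptor Cripto. The receptors phosphorylate Smad2 and Smad3, which join Smad4, enter the nucleus and act on target genes with Foxh1. Among these targets are Nodal itself and the Lefty genes, whose products block Nodal signalling, so that the pathway holds both a positive and a negative loop. In the early mouse embryo Nodal signalling maintains the epiblast, induces the primitive streak and sets up the anterior-posterior axis, while Cerberus (Cer1) and Lefty1 are secreted by the anterior visceral endoderm. Lef1 is the DNA-binding partner of beta-catenin that carries the Wnt signal to its targets.

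Promoter windows were read to show what sequence lies at the starts of the genes. The genes shown were set by the windows available and not by their change, and neither Lefty gene is among them. RefSeq windows (GRCm38.p6, 250 bases before to 50 bases after the transcription start) were matched for 4 of the 10 genes, and all 4 are shown 5′ to 3′ on the strand of the gene. The windows lie at chr10:61417722-61418021 (plus strand) for Nodal, chr9:110946109-110946408 (minus strand) for Tdgf1, chr4:82885102-82885401 (minus strand) for Cer1 and chr9:119401928-119402227 (plus strand) for Acvr2b. Capitals mark matches to the motifs searched on both strands: for Tcf/Lef factors CTTTGAA as well as its variants CTTTGAT together with CTTTGTT plus the variant CTTTGTA, for Foxh1 AATCCACA as well as AATACACA, and for Smads CAGACA as well as GTCTAGAC, of which no match overlapped another.
Nodal: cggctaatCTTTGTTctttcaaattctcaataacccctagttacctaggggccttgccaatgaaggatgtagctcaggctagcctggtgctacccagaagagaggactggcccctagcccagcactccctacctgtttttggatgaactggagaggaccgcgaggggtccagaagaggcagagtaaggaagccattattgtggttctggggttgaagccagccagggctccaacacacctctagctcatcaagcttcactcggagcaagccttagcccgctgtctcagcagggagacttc
Tdgf1: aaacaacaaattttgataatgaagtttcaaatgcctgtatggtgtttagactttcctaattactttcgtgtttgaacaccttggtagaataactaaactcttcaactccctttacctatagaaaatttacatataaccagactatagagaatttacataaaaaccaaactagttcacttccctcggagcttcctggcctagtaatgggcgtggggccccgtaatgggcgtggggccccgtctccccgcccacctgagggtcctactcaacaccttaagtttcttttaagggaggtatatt
Cer1: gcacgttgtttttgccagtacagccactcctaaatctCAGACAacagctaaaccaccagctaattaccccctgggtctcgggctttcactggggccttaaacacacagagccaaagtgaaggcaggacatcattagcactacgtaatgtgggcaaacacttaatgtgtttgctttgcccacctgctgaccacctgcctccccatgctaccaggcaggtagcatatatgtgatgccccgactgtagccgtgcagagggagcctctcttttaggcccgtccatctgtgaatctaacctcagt
Acvr2b: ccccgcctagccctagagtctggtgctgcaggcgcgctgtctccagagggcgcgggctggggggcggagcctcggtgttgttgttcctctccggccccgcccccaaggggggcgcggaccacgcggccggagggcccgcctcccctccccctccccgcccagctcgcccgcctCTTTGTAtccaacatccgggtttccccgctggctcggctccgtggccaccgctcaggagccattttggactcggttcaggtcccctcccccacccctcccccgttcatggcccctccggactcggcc

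The Nodal window held CTTTGTT, with its first base at -242 from the start, and the Acvr2b window held CTTTGTA, with its first base at -77. At least 1 of the 4 Tcf/Lef motifs was found in 16.9% of all 32851 windows of this length. The Cer1 window held CAGACA, with its first base at -213, a motif found in 21.0% of all windows. The Tdgf1 window held none of the motifs searched, and none of the 4 windows held a Foxh1 motif, against 1.82% of all windows. A match of this kind is a description of the letters and not a measured binding site.

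The authors' deposited table gives 1 FPKM value per gene and group (fragments per kilobase of transcript and scaled to the size of the library), so the spread between the 3 libraries of a group is known only from the test that the authors ran, and the depth of each library is unknown. A gene is said to have risen or fallen where the q-value of that test, adjusted over all tested rows, was at most 0.05. The standard error (SE) of a log2 fold, plus_Dox over minus_Dox, follows from the authors' test statistic, and 95% intervals were computed from it. The labels do not say that the libraries came from separate cultures, so this spread may be technical. The induced gene was checked first: in the authors' deposited table Lef1 stood at 7.56 FPKM in minus_Dox and 51.0 FPKM in plus_Dox, a row that sums transgene and endogenous transcripts. Over all tested rows the median log2 fold was 0.20. Each gene is therefore also given relative to the median and after removal of a smooth trend on GC content and length.

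Of the 10 genes, 5 rose (Nodal, Tdgf1, Lefty1, Lefty2 and Foxh1), 2 fell (Cer1 and Skil) and 3 did not pass (Gdf3, Acvr2b and Smad2). Among all tested rows 12.2% were called, 8.98% as rises and 3.22% as falls. The median log2 fold of the 10 genes was 0.44. After subtraction of the median of all genes, 4 of the 10 rose and 2 fell, against 3.40% and 5.99% of all tested rows. After the trend removal 4 rose and 1 fell, against 1.28% and 0.900% of the 16658 rows with both properties. The genes were picked with earlier results of these data known, so these counts describe the genes chosen. In bulk RNA, more cells that express a gene and more RNA per cell cannot be told apart.

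**Figure D1:**
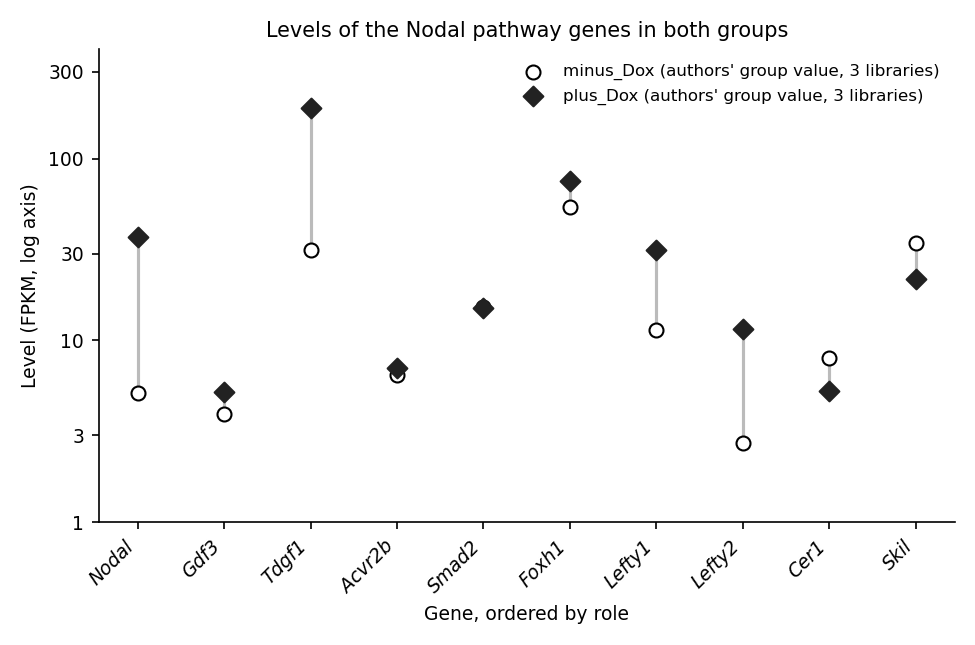
Level of each of the 10 genes in FPKM (log axis), with open circles for minus_Dox and filled diamonds for plus_Dox, each the authors' single value over 3 libraries and without an error bar. Nodal, Tdgf1, Lefty1 and Lefty2 show the widest gaps, from 5.14 to 37.0 FPKM for Nodal, while the symbols of Smad2 lie on each other at 15.2 and 15.1 FPKM.

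Nodal had the largest deposited fold of the 10 genes, with an interval that overlaps that of Tdgf1, and the second largest after the trend removal. In the authors' deposited table its level was 5.14 FPKM in minus_Dox and 37.0 FPKM in plus_Dox. The fold was 7.21 with a 95% interval of 5.73 to 9.07 (2.85 ± 0.17 SE on the log2 scale, with a listed q of 0). This fold exceeded those of 99.5% of all tested rows with a finite fold. The row covers chromosome 10 from 60880719 to 60888086 in mm9, which the submitters' processing notes name as the build, and holds no other gene. Against the median gene the log2 fold was 2.65, and after the trend removal it was 2.37 (q = 8e-41), so the rise passed under both. Nodal went from the eighth to the third place in the order of the 10 levels.

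Gdf3, a related ligand of the pluripotent epiblast, did not pass. It stood at 3.93 FPKM in minus_Dox and 5.19 FPKM in plus_Dox in the authors' deposited table (chromosome 6, 122555420 to 122560105 in mm9). The log2 fold was 0.40 (SE 0.20, q = 0.21), with an interval of 0.00065 to 0.80. This interval holds folds from 1.00 up to 1.74. After the trend removal the log2 fold was 0.17. The 2 ligand genes were at similar levels without doxycycline, with 0.765 FPKM of Gdf3 for each FPKM of Nodal, and at 0.140 with it.

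Tdgf1, whose product Cripto lets Nodal bind its receptors, rose by almost as much as Nodal. The authors' deposited table gives 31.3 FPKM in minus_Dox and 190.5 FPKM in plus_Dox, a fold of 6.09 with a 95% interval of 4.93 to 7.51 (2.61 ± 0.15 SE on the log2 scale, with a listed q of 0). It was the third highest of the 10 genes without doxycycline and the highest with it, above 97.0% of all tested rows. In mm9 coordinates the row covers chromosome 9 from 110842113 to 110848662. The log2 fold was 2.41 relative to the median of all genes and 2.52 after the trend removal (q = 1.2e-55). This last shift was the smallest among the 4 largest rises. The ratio of Tdgf1 to Nodal, per length, was 6.09 in minus_Dox and 5.14 in plus_Dox. Of all 50-base windows of the longest annotated Tdgf1 transcript, 12.5% also occur in the pseudogene Tdgf1-ps1 and 0 in Tdgf1-ps2. Only exact matches were counted, and the longest run shared with Tdgf1-ps2 was 43 bases. Tdgf1-ps1 has no row of its own in the authors' deposited table. How reads shared with that copy were counted was not given in the sources used here. A share of the Tdgf1 value, of a size not measured, is therefore uncertain.

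Acvr2b, a type II activin receptor gene, and Smad2, which carries the signal from the receptors, did not pass. Acvr2b stood at 6.47 and 7.02 FPKM in the authors' deposited table (chromosome 9, 119311561 to 119342619 in mm9), with a log2 fold of 0.12 and an interval of -0.31 to 0.55 (q = 0.87). Its direction turned under both other scalings, to -0.08 relative to the median and -0.22 after the trend removal. Smad2 stood at 15.2 and 15.1 FPKM in the authors' deposited table (chromosome 18, 76401233 to 76465385 in mm9), with a log2 fold of -0.01 and an interval of -0.43 to 0.40 (q = 1.00). After the trend removal its log2 fold was 0.25, also without passing. On the fold scale the intervals run from 0.804 to 1.46 for Acvr2b and from 0.745 to 1.32 for Smad2. Changes within those bounds are not excluded.

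Foxh1, the forkhead factor that brings Smad2 to Nodal targets, was the highest of the 10 genes without doxycycline and rose slightly. It stood at 54.3 FPKM in minus_Dox and 75.4 FPKM in plus_Dox in the authors' deposited table, a fold of 1.39 with an interval of 1.12 to 1.73 (0.47 ± 0.16 SE on the log2 scale, q = 0.032). In mm9 coordinates the row covers chromosome 15 from 76498713 to 76500378. This rise depended on the scaling: the log2 fold was 0.27 relative to the median of all genes (q = 0.36) and turned to -0.20 after the trend removal (q = 1.00). Its transcript is short and rich in GC, with 59.1% GC over 1365 nt against medians of 50.3% and 2669 nt for the tested rows. All 14 tested rows within 100 kb of Foxh1 were also higher in plus_Dox (median log2 fold 0.67), and none of those with both properties passed after the trend removal.

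The Lefty genes, which lie 35.9 kb apart on chromosome 1 and encode secreted blockers of Nodal and its co-receptor, both rose. Lefty1 stood at 11.4 FPKM in minus_Dox and 31.4 FPKM in plus_Dox in the authors' deposited table (182865152 to 182868531 in mm9). The fold was 2.75 with an interval of 2.10 to 3.60 (1.46 ± 0.20 SE on the log2 scale, q = 9.54e-11). Lefty2 stood lower in both groups, at 2.74 and 11.5 FPKM in the authors' deposited table (182823238 to 182829234 in mm9). Its fold was 4.19 with an interval of 2.82 to 6.23 (2.07 ± 0.29 SE on the log2 scale, q = 4.49e-10). The intervals of the 2 folds overlap, and the difference between them was not tested. Both rises passed relative to the median (log2 folds 1.26 and 1.87) and after the trend removal, where that of Lefty1 shrank most, to 0.84 (q = 0.0029), and that of Lefty2 was 1.79 (q = 2.9e-07).

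Lefty1 was the more abundant of the pair, with 4.17 FPKM for each FPKM of Lefty2 in minus_Dox and 2.73 in plus_Dox. The genes are near copies: 17.9% of the 50-base windows of the longest Lefty1 transcript and 11.6% of those of Lefty2 occur in both, with a longest shared run of 140 bases. Reads from these stretches could be counted for either gene, so the split between them is less certain than their sum. The sum of both Lefty genes went from 14.2 to 42.9 FPKM, a smaller relative change than that of Nodal. For each FPKM of Nodal there were 2.76 FPKM of Lefty1 and Lefty2 in minus_Dox and 1.16 in plus_Dox. This ratio is a description of group values and carries no error.

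Cer1, whose product Cerberus binds Nodal, BMP and Wnt ligands outside the cell, went the other way from the Lefty genes. It stood at 8.02 FPKM in minus_Dox and 5.26 FPKM in plus_Dox in the authors' deposited table (chromosome 4, 82527654 to 82531052 in mm9), a fold of 0.656 with an interval of 0.495 to 0.868 (-0.61 ± 0.21 SE on the log2 scale, q = 0.031). The fall passed at larger size under both other scalings, with a log2 fold of -0.81 relative to the median (q = 0.0024) and -0.82 after the trend removal (q = 0.0068). At a q-value of 0.01 the deposited fall did not pass. The ratio of Cer1 to Nodal was 1.56 in minus_Dox and 0.142 in plus_Dox.

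Skil, a nuclear co-repressor of Smad complexes, was the second highest of the 10 genes without doxycycline and fell. It stood at 34.3 FPKM in minus_Dox and 21.8 FPKM in plus_Dox in the authors' deposited table (chromosome 3, 30993979 to 31021499 in mm9), a fold of 0.636 with an interval of 0.510 to 0.795 (-0.65 ± 0.16 SE on the log2 scale, q = 0.0018). The fall passed relative to the median of all genes (log2 fold -0.85) and did not pass after the trend removal, where the log2 fold was -0.19 with an interval of -0.51 to 0.13. The Skil transcript has 41.0% GC over 6717 nt, a longer and more AT-rich transcript than the median of the tested rows. Ski, the related co-repressor gene, had a log2 fold of 0.05 (SE 0.18, q = 0.97) in the authors' deposited table.

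**Figure D2:**
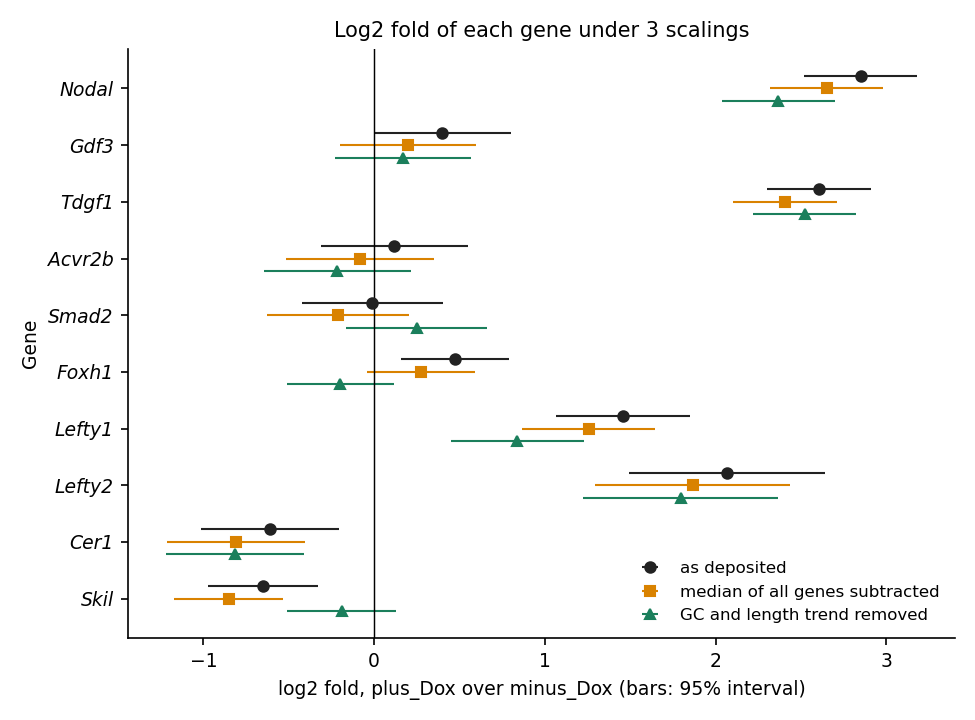
Log2 fold of each of the 10 genes, plus_Dox over minus_Dox, as deposited (circles), relative to the median of all genes (squares) and after removal of the GC and length trend (triangles), with 95% intervals from the authors' test statistic. Nodal, Tdgf1, Lefty1 and Lefty2 lie to the right and Cer1 to the left of 0 under all 3 scalings, whereas Foxh1 crosses 0 and the interval of Skil reaches it after the trend removal.

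The order of the 10 levels changed between the groups. Without doxycycline it ran from Foxh1 through Skil, Tdgf1, Smad2, Lefty1, Cer1, Acvr2b, Nodal and Gdf3 to Lefty2. With doxycycline it ran from Tdgf1 through Foxh1, Nodal, Lefty1, Skil, Smad2, Lefty2, Acvr2b and Cer1 to Gdf3. Neighbours such as Skil and Tdgf1 without doxycycline (34.3 and 31.3 FPKM) or Cer1 and Gdf3 with it (5.26 and 5.19 FPKM) were close, and the spread of single levels is not known. The 4 genes with rises of over 2-fold stood between the 46.9th and the 85.5th percentile of all tested levels in minus_Dox, so they were expressed without induction.

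**Figure D3:**
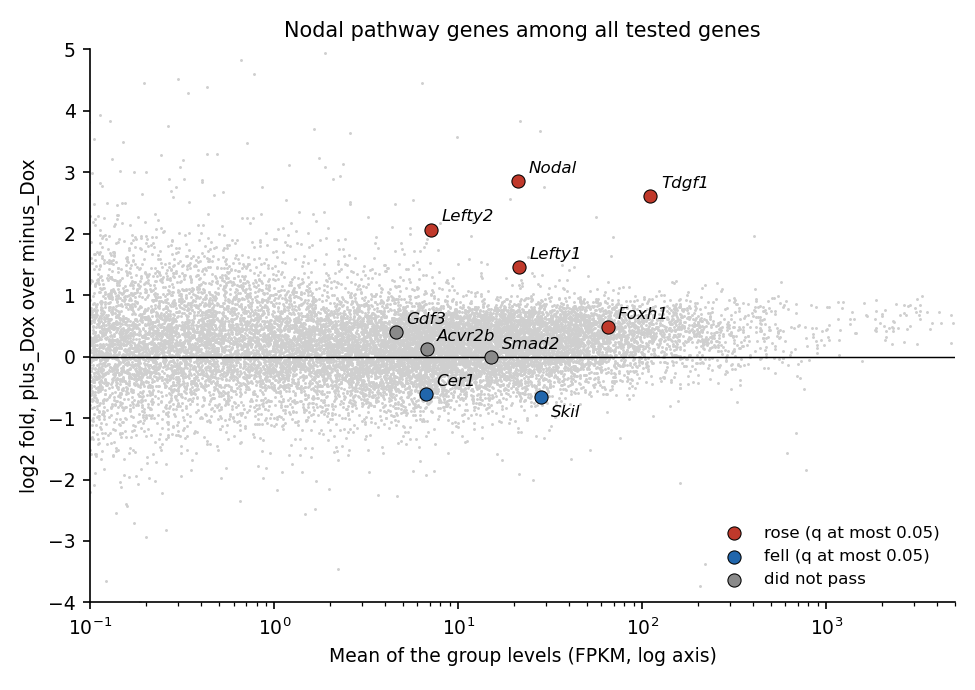
Log2 fold, plus_Dox over minus_Dox, against the mean of the group levels in FPKM (log axis) for tested rows with a finite fold inside the axes (grey dots) and the 10 genes (large symbols, red for rises, blue for falls, grey where the test was not passed). Tdgf1 (log2 fold 2.61) and Nodal (2.85) stand above nearly all rows of like level, and Foxh1 (0.47) lies within the cloud.

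The wider Nodal/activin pathway was described with a list of 61 genes that includes the 10. All 61 were found (1 of them, Ldlrad4, under an older symbol), and 60 were tested. Of these 60, 20 rose, 4 fell and 36 did not pass, with a median log2 fold of 0.36 beside 0.20 for all tested rows, of which 8.98% rose and 3.22% fell. Of the 50 tested genes that are not among the 10, 15 rose and 2 fell. After the trend removal 10 of these 15 rises and neither of the 2 falls still passed, against 1.28% and 0.900% of all rows with a value there. The median log2 fold was 0.31 over the 50 as deposited. It was 0.06 over the 49 with a value after the trend removal, since Gdf1 had none.

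Nodal was the single one of the 8 tested ligand genes of the list that rose, against 8.98% of all tested rows. The highest of the 6 tested ligand genes other than Nodal and Gdf3 was Gdf1, whose product pairs with Nodal, in a row that it shares with Lass1 (10.4 and 18.4 FPKM in the authors' deposited table, with 0.83 as its log2 fold, SE 0.41, q = 0.20). Part of that row belongs to the other gene, so the level is uncertain. The activin and TGF-beta ligand genes (Inhba, Inhbb, Tgfb1, Tgfb2 and Tgfb3) stood between 0.0519 and 1.72 FPKM in both groups. Neither of the protease genes that cut the Nodal precursor passed, with Furin at 9.39 and 10.5 FPKM in the authors' deposited table, a log2 fold of 0.16 (SE 0.18, q = 0.71). Cfc1, the other EGF-CFC co-receptor gene beside Tdgf1, stood at 1.03 and 1.57 FPKM in the authors' deposited table, a log2 fold of 0.61 (SE 0.32, q = 0.23).

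None of the 5 tested receptor genes and the 3 Smad genes rose, against 8.98% of all tested rows. Acvr1b, the type I receptor gene used by Nodal, stood at 7.48 and 7.01 FPKM in the authors' deposited table, a log2 fold of -0.09 (SE 0.18, q = 0.88). Tgfbr1, a type I receptor gene for TGF-beta, fell from 7.68 FPKM to 4.40 FPKM in the authors' deposited table, a log2 fold of -0.80 (SE 0.18, q = 0.00029), and did not pass after the trend removal (-0.37). Acvr1c, the type I receptor gene for Nodal and activin also known as Alk7, was not tested by the authors and stood at 0.0132 and 0.00284 FPKM. Of the 3 Smad genes none passed, with Smad4, the common partner, at 31.6 and 36.5 FPKM in the authors' deposited table, a log2 fold of 0.21 (SE 0.27, q = 0.77).

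Nuclear partners moved in both directions. Eomes, a T-box factor that acts with Smad2 in the streak, rose from 7.83 FPKM to 18.9 FPKM in the authors' deposited table, a log2 fold of 1.28 (SE 0.18, q = 3.91e-10), and passed after the trend removal (0.99). Mixl1, at 0.307 and 0.886 FPKM and so named after its value was seen, also rose. Trim33, a chromatin partner of Smad2, fell from 15.6 FPKM to 9.23 FPKM in the authors' deposited table, a log2 fold of -0.76 (SE 0.17, q = 0.00046), and did not pass after the trend removal (-0.44). Gtf2i, the highest of those that did not pass, stood at 75.0 and 83.1 FPKM.

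Of the inhibitor genes, 4 of 8 secreted and 4 of 13 intracellular ones rose, Lefty1 and Lefty2 included, and 1 of each kind fell (Cer1 and Skil). Among all tested rows 8.98% rose and 3.22% fell. After the trend removal 3 of the 8 secreted and 1 of the 13 intracellular genes rose, and Cer1 fell. The shares of all rows with a value there were 1.28% and 0.900%. Outside the cell, Fst, which encodes the activin antagonist follistatin, rose from 2.93 FPKM to 10.1 FPKM in the authors' deposited table, a log2 fold of 1.78 (SE 0.22, q = 3.45e-13), and passed after the trend removal (1.72). Nog, an antagonist gene of BMP signalling named after its value was seen, rose at a low level (0.130 and 0.290 FPKM), and Chrd did not pass (1.04 and 1.43 FPKM). Inside the cell, Pmepa1, a TGF-beta-induced gene whose product holds back Smad activation, rose from 5.49 FPKM to 13.3 FPKM (log2 fold 1.28, SE 0.26) in the authors' deposited table and passed after the trend removal (1.04). Smad7, the inhibitory Smad gene (5.40 to 9.88 FPKM), Dact2, whose product promotes the breakdown of Nodal receptors (7.65 to 13.6 FPKM), and Drap1, whose product restrains Foxh1 (109.0 to 187.6 FPKM), rose in the authors' deposited table and did not pass after the trend removal. With the median subtracted, Smad7 (0.67) and Nog (0.96) did not pass either. Tgif1, a Smad co-repressor gene, stood at 79.6 and 88.2 FPKM without passing.

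Of 12 genes listed here as targets in the early embryo, 7 rose and none fell, against 8.98% and 3.22% of all tested rows. After the trend removal 6 of the 7 passed, while 1.28% of all rows with a value there rose. These genes too were chosen with earlier results of these data known. Gsc, the organizer gene, rose from 1.47 FPKM to 5.64 FPKM in the authors' deposited table, a log2 fold of 1.94 (SE 0.24), and Nanog with 1.94 (SE 0.19). Fgf8 (3.67), T (3.64) and Wnt3 (3.11) had the largest deposited log2 folds of the list. In minus_Dox T (0.381 FPKM) and Wnt3 (0.250 FPKM) were low. With a pseudocount of 1 the log2 folds were 3.38 for Fgf8, 2.06 for T and 1.34 for Wnt3, against 2.63 for Nodal. Fgf8, T and Wnt3 are also targets of Wnt or markers of the streak, so the list does not separate Nodal from Wnt. Sox17 rose (0.67, q = 0.043) and passed neither with the median subtracted nor after the trend removal. Otx2 (log2 fold -0.12), Foxa2 (0.32), Lhx1 (-0.26), Hhex (0.28) and Id1 (0.11) did not pass. Whether each listed gene, Id1 included, is a target of Nodal in these cells was not tested.

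**Figure D4:**
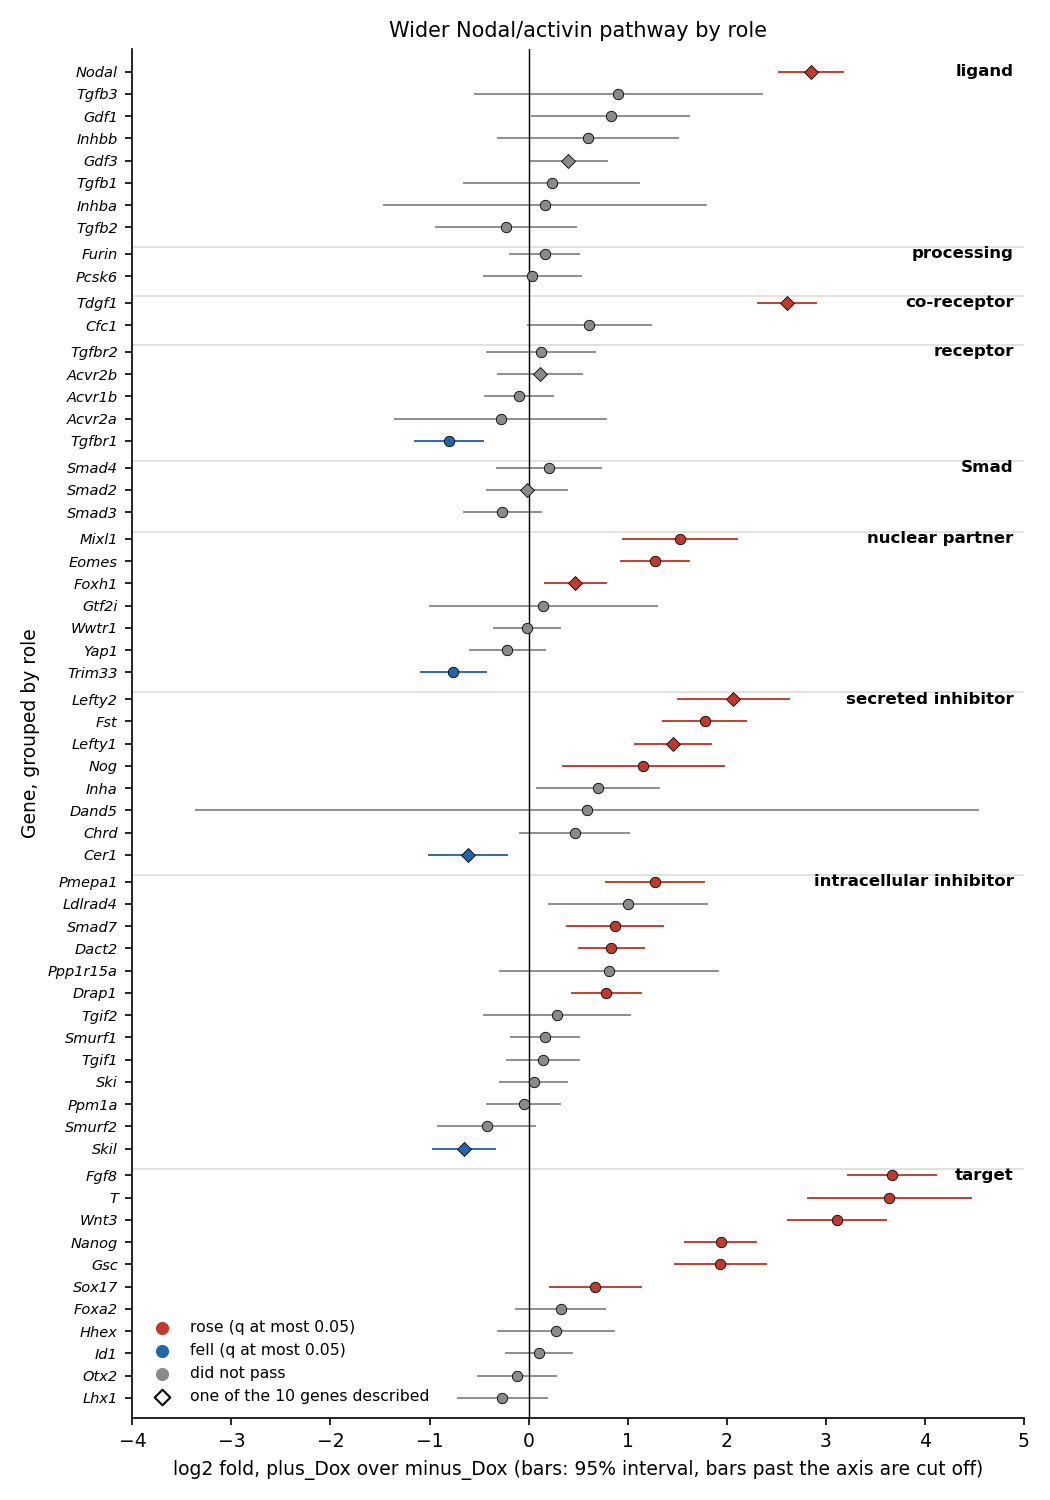
Log2 fold, plus_Dox over minus_Dox, of 59 of the 60 tested genes of the wider Nodal/activin list, grouped by role, with 95% intervals (red for rises, blue for falls, grey where the test was not passed, diamonds for the 10 genes described). Rises are found among ligands (Nodal alone), co-receptors (Tdgf1 alone), nuclear partners, inhibitors and targets. None is found among the 5 tested receptors, the 3 Smads and the 2 processing enzymes. Of all tested rows 8.98% rose, and these lists are short.

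Position on the chromosome was examined because the Lefty genes are neighbours. Tmem63a, a membrane channel gene on the far side of Lefty1, rose from 2.98 FPKM to 8.34 FPKM in the authors' deposited table, a log2 fold of 1.49 (SE 0.47, q = 0.018), and did not pass after the trend removal (1.14). Ephx1, beyond Tmem63a, and BC031781, on the other side of Lefty2, did not pass (log2 folds 0.61 and -0.05). These neighbours were chosen by position, within 100 kb, and named after their values were seen.

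The nearest tested neighbours of Nodal and Tdgf1 did not pass. Eif4ebp2, 7.16 kb from Nodal, had a log2 fold of -0.07 in the authors' deposited table, and Lrrc2, 5.39 kb from Tdgf1, had 0.51. Farther out, X99384, 34.4 kb from Nodal, rose (0.75), as did Prss50, 75.0 kb from Tdgf1 (1.18), at folds below those of the 2 genes. Nanog, a target above, lies 97.4 kb from Gdf3, beyond Dppa3, whose log2 fold of 0.32 did not pass, and beyond Gm10420 and Gm10224, which rose (0.98 and 0.99). Over all 10 genes, 50 other tested rows lay within 100 kb, of which 12 rose and 1 fell, against 8.98% and 3.22% of all tested rows. After the trend removal 2 passed, among them Nanog, where 1.28% of all rows with a value there rose and 0.900% fell. Not all of the 50 could be given a value by that step, X99384 and Gm16707 being examples without one.

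**Figure D5:**
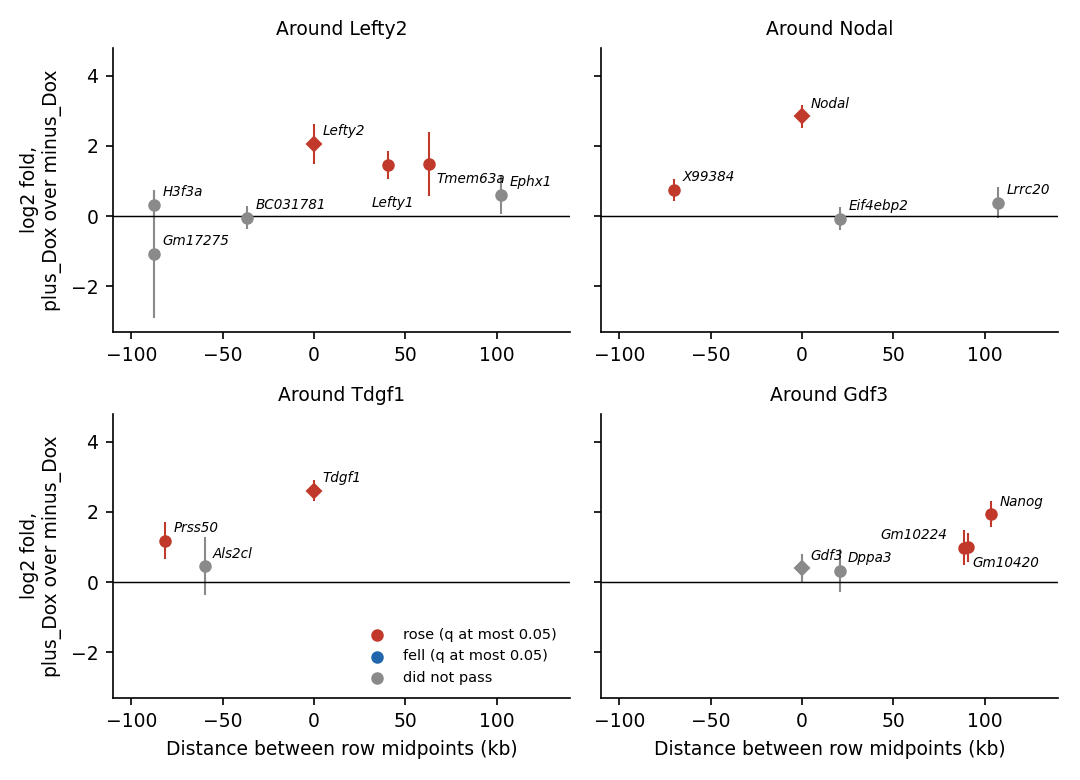
Log2 fold, plus_Dox over minus_Dox, of reported tested rows with at least 1 FPKM within 100 kb of Lefty2, Nodal, Tdgf1 and Gdf3 (diamonds), against the distance between row midpoints in kb, with 95% intervals (red for rises, grey where the test was not passed). Lefty2, Lefty1 and Tmem63a stand between log2 folds of 1.46 and 2.07, and Nodal and Tdgf1 stand above all neighbours shown.

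Other cell types in the aggregates express some of these genes, so their markers are given beside the result. Pluripotency and epiblast genes, a check of the labelled cells, ranged from low to high levels in the authors' deposited table. Pou5f1 (820.2 and 1510 FPKM, q = 0.055) and Otx2 (108.4 and 100.0 FPKM) stood high. Esrrb (0.843 and 1.02 FPKM) and Klf4 (1.22 and 1.08 FPKM) were low. Of 10 such markers, 3 rose and 1 fell (Sox2, from 56.2 FPKM to 30.9 FPKM), against 8.98% and 3.22% of all tested rows. The summed level of the 10 was 1700 FPKM in minus_Dox and 2691 FPKM in plus_Dox, most of the gap being that of Pou5f1. With the median subtracted 1 rose and 2 fell, against 3.40% and 5.99% of all tested rows. After the trend removal 1 rose and 1 fell, against 1.28% and 0.900% of all rows with a value there. The fall of Sox2 passed under both. Visceral endoderm, which expresses Cer1 and Lefty1, was represented by 10 markers, with summed levels of 157 and 185 FPKM. Of these, 2 rose (Amn and Sox17) and none fell, against 8.98% and 3.22% of all tested rows. Neither rise passed after the trend removal, where Gata6 (-0.72) fell. Of the anterior visceral endoderm list, Dkk1 rose with Lefty1, Cer1 fell, and Hhex and Lhx1 did not pass. Of 6 tested fibroblast markers none passed (q from 0.055 to 0.997), with summed levels of 17.6 and 22.6 FPKM over the 7 listed. Of 5 tested trophoblast markers 3 rose (Eomes, Krt8 and Krt18), against 8.98% of all tested rows. Of these 3, Eomes passed after the trend removal. Cdx2 (0.266 and 0.361 FPKM) and Tfap2c (0.329 and 0.373 FPKM) were low and did not pass, and Elf5 (0.0236 and 0.0344 FPKM) was not tested. No marker was listed at 0 in either group. The part of these cell types in the results was not tested.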

How the data were processed

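The data are RNA sequencing libraries of polyadenylated RNA from 3 minus_Dox and 3 plus_Dox samples, grouped by their titles. Alignment and quantification tools listed in the submitters' processing notes are Cufflinks 2.0.2, Cuffdiff, TopHat2 2.0.8, Picard and Bowtie, with mm9 as the build. The annotation used for the rows was not given in the sources used here. Deposited by the authors was 1 table with FPKM per group, the log2 fold, a test statistic (a score with no fixed range), a p-value and a q-value. Values of single libraries were not analysed here, so the authors' own test was used, with q at most 0.05. The SE is the size of the log2 fold over that of the statistic.

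As an alternative, the median fold (log2, 0.20) of the 12240 tested rows that reached 1 FPKM was subtracted. For the trend removal, log2 folds were fitted on cubic splines (6 knots each) of GC content and log2 transcript length. Both were taken from the longest basic GENCODE vM21 transcript. Only rows that reached 1 FPKM in either group entered the fit, weighted by 1/(SE squared + 0.1). The trend was removed from all 16658 rows with both properties, and p and q were recomputed over these with the authors' SE. This step was tested on simulated data with a linear trend only, and the cause of the trend in these data was not tested. The GENCODE transcripts give properties for 92.5% of tested rows. Python 3.11.15 with numpy 2.4.6 and scipy 1.17.1 was used. Genes and lists were chosen with earlier results of these data known. Named were the 10 genes, Lef1, list genes called with at least 1 FPKM, the highest uncalled gene of each role, and the 3 single-gene rows nearest in fold to Nodal and to Tdgf1. Other names were chosen after their values were seen. Values of 2 genes, both within the counts, are not reported here. No protein sequence was used here, so proteins were not compared.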

Additional observations from a re-analysis of the deposited data

How the results depend on the processing

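The 5 rises among the 10 genes stayed within 1.5 times that number under every alternative tried (4 or 5), and the falls did not. Of the 2 falls, 1 passed at a q-value of 0.01 (Skil), 0 at a minimum of 2-fold and 1 after the trend removal (Cer1). In the wider list, the 4 falls became 0 at a minimum of 2-fold and 1 after the trend removal. Pseudocounts of 1 and 0.1 turned no direction. Acvr2b turned to -0.082 with the median subtracted and to -0.22 after the trend removal, Smad2 to 0.25 and Foxh1 to -0.20 after the trend removal, and the cause was not tested. Foxh1 (0.27) no longer passed with the median subtracted, nor Skil (-0.19) after the trend removal. Over all tested rows, 1626 rises and 584 falls became 616 and 1085 with the median subtracted, and 214 and 150 after the trend removal. The Lefty to Nodal ratio was 2.23 (minus_Dox) and 0.848 (plus_Dox) for Lefty1 alone and 0.534 and 0.310 for Lefty2 alone, lower in plus_Dox each time. No paired analysis was possible because the columns hold group values and not single libraries, and for the same reason no library could be left out. Depth is unknown.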

Other observations

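Likeness to Nodal and Tdgf1 was measured by the fold, the 1 contrast of the study. Among single-gene rows reaching 5 FPKM in either group, the 3 whose log2 fold in the authors' deposited table was nearest to that of Nodal (2.85) were Lef1 (2.75), Tdgf1 (2.61) and AC132082.1 (2.56, SE 8.48). Nearest to Tdgf1 (2.61) were AC132082.1, Snord89 (2.54, SE 13.4) and Gm10136 (2.49, SE 1.41). None of these last 3 passed. Likeness here is the difference of a single fold between 2 groups, from 0.046 to 0.29 on the log2 scale, and says nothing of shared control.

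Neighbours of the other genes differed. Around Foxh1, 5 of 14 tested rows within 100 kb rose in the authors' deposited table, against 8.98% of all tested rows. Among them was Kifc2 (5.55 and 9.26 FPKM), whose row ends 88 bases from that of Foxh1. Around Acvr2b none of 7 tested rows passed. Zdhhc21, 21.8 kb from Cer1, fell with it (4.39 and 2.88 FPKM, log2 fold -0.61) and stood at 0.05 after the trend removal.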
